A study of Homo sapiens with 8 samples.

Results

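The genes described here are 44 parts of the kinetochore, the centromere and the spindle checkpoint. They were chosen by symbol from a table of 58735 genes, and all 44 symbols were found once. The RNA came from LN229 cells, a glioblastoma line of human origin in long use. In 4 samples, called the combination here, the cells had been given bortezomib at 7.5 nM and panobinostat at 15 nM for 48 h. The other 4 samples were given DMSO, the solvent, for the same time, although a label calls them untreated. Bortezomib inhibits the proteasome and panobinostat inhibits histone deacetylases. Since no sample had either drug alone, their separate effects cannot be told apart. The labels do not say whether replicates are separate cultures, and the text on extraction speaks of brain tissue. The spread behind each p-value is that of these samples and can be purely technical.

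The kinetochore is the protein assembly that ties a chromosome to the microtubules of the spindle. It is built on nucleosomes that hold CENP-A, the histone H3 variant that marks the centromere, through an inner layer called the constitutive centromere network. An outer layer, made of the NDC80, MIS12 and KNL1 complexes, grips the microtubules. Kinetochores without microtubules activate the spindle checkpoint, which holds back the anaphase-promoting complex until every chromosome is attached. Many of these genes are known to be transcribed mainly from late S phase to mitosis. Some of them are known to be kept low in resting cells in part through a promoter element called CHR (cell cycle genes homology region).

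Libraries held 15189251 to 17324292 reads assigned to genes. Genes with at least 1 read numbered 27742 to 29035 in the combination and 25046 to 25719 in DMSO. Mitochondrial genes held 13.6% ± 1.62 (SD, n = 4) of the reads in the combination and 5.47% ± 0.975 in DMSO (two-sided exact permutation p = 0.0286, which is the lower limit for 4 against 4 samples). Scaling to nuclear reads in place of the deposited scaling moved the median log2 fold change of all genes tested from -0.03 to 0.02. The summed level of 7 glioma and astroglia markers was 247 to 261 FPKM in the combination and 852 to 880 FPKM in DMSO, with GFAP below 1 FPKM in every sample. The list did not move as a whole, since OLIG2 was called higher (3.5 ± 0.566 against 2.34 ± 0.300 FPKM) and CD44 was not called (54.8 ± 1.34 against 53.1 ± 2.31 FPKM). All 4 microglia and leukocyte markers and all 3 endothelium markers were below 1 FPKM in every sample. The endothelium markers summed to 0.893 to 1.25 FPKM in the combination and 0.266 to 0.463 FPKM in DMSO. PECAM1 stood at 0.469 ± 0.0899 against 0.0276 ± 0.0187 FPKM and VWF at 0.505 ± 0.0451 against 0.157 ± 0.0477 FPKM. CLDN5 went the other way, at 0.0663 ± 0.109 against 0.160 ± 0.0486 FPKM, and its groups overlap. The 3 neuron markers summed to 13.7 to 14.6 FPKM in the combination and 9.91 to 11.2 FPKM in DMSO, and RBFOX3 was below 1 FPKM throughout. Of these, SNAP25 was called higher (10.2 ± 0.460 against 6.18 ± 0.559 FPKM) and SYT1 lower (3.58 ± 0.192 against 4.26 ± 0.297 FPKM). The 3 oligodendrocyte markers, of which MBP and MOG were below 1 FPKM throughout, summed to 1.39 to 1.76 and 24.4 to 29.7 FPKM. The part of these differences in the results was not tested.

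Most of these genes were far lower after the combination, and a small set was nearly level. Levels are FPKM, the reads of a gene scaled by its exon length and by the deposited factor of each library. Of the 44 genes, 43 passed the filter of a mean of 1 FPKM over all 8 samples, 15 of them only through their DMSO level and 28 with a mean of at least 1 FPKM in both groups. CENPP did not pass. In limma, 38 of the 43 were lower at an adjusted p under 0.05, while the same test called 41.0% of all 13296 genes lower and 36.9% higher. The 15 genes that passed only through DMSO have a lower mean in the combination by that very criterion, so the filter itself bears on this count. Among the 28 with a mean of at least 1 FPKM in both groups, 23 were called lower, against 41.1% of the 11651 genes of that kind. Without the filter, 39 of 44 were lower against 16.5% of 38736 genes. Those include many genes with very few reads, where log2(FPKM + 1) leaves little room for a decrease, so that contrast is not like for like. The fitted decrease, on the log2(FPKM + 1) scale, was at least 2-fold for 35 genes (11.1% of all genes tested) and at least 4-fold for 27 (2.88%). The median log2 fold change was -2.39 over the 43 genes and -0.03 over all genes tested. These fold counts and this median include the 15 genes that passed only through DMSO. They lean on the filter in the same way and were not redone for the 28. Since the pseudocount of 1 shrinks the change of low genes, the median was -3.18 with a pseudocount of 0.1. No member was called higher, and 0 were higher at an unadjusted p under 0.05 or with voom. Scalings that do call 1 or 2 higher are given below for CENPB and CENPT.

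For 38 of the 43 tested genes, and for CENPP, the combination samples all lay below the DMSO samples (38.5% of all genes tested). For 0 genes they all lay above (34.2%). For 21 genes the mean FPKM was over 10 times as high in DMSO. The share of all genes at that fold was not computed, so this count cannot be weighed against them. Most of the 21 had a combination mean below 1 FPKM, where the fold is imprecise. They were CENPA, OIP5, CENPI, CENPK, CENPO, NDC80, NUF2, SPC24, SPC25, KNL1, SKA1, SKA3, CENPE and TTK. The order of levels changed with this split. In DMSO the highest means were those of CENPB, ZWINT, HJURP, CENPF and CENPW, but the samples of CENPW overlap those of SKA2, DSN1 and NUF2. In the combination the highest means were those of CENPB, MAD2L2, BUB3, NSL1 and SKA2. There NSL1 and SKA2 did not differ beyond their spread, and the samples of both overlap those of MIS12 and CENPT. In such bulk samples, fewer dividing cells and less RNA per dividing cell cannot be told apart. MKI67, a marker of dividing cells, stood at 1.09 ± 0.187 against 37.6 ± 0.437 FPKM, TOP2A at 3.14 ± 0.441 against 68.1 ± 2.04 FPKM and PCNA at 49.7 ± 1.36 against 212 ± 12.5 FPKM, and all 3 were called lower.

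CENP-A and the proteins that load it fell together, all 4 of 4. HJURP, the chaperone that deposits CENP-A, stood at 2.03, 2.0, 1.92 and 1.89 FPKM in the combination and at 51.7, 51.0, 51.5 and 47.8 FPKM in DMSO. The groups lie far apart, and the log2 fold change was -4.12 ± 0.0359 (SE, limma adjusted p = 5.05e-12). CENPA itself, on chromosome 2 (26764289 to 26801067, GRCh38), stood at 0.860 ± 0.192 against 21.4 ± 1.28 FPKM, a mean 24.9 times as high in DMSO. SLC35F6, on the same strand, shares 7.0% of the exon length of CENPA. OIP5 and MIS18A encode subunits of the Mis18 complex, which prepares the centromere for new CENP-A. OIP5 stood at 0.613 ± 0.270 against 9.91 ± 0.717 FPKM, with 8 to 19 reads in each combination sample. Of its exon length, 38% lies under the antisense gene OIP5-AS1, which stood at 2.82 ± 0.0452 against 4.96 ± 0.285 FPKM, and without known strand their reads cannot be told apart there. MIS18A fell least of the 4, with 1.98, 3.22, 2.50 and 2.72 FPKM in the combination and 12.6, 12.9, 11.7 and 11.7 FPKM in DMSO (log2 fold change -1.89 ± 0.0949, limma adjusted p = 7.61e-08).

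CENPB binds a short box in the alpha satellite DNA of centromeres, and its gene lies on chromosome 20 (3783851 to 3786690). It stood at 113, 109, 121 and 118 FPKM in the combination and at 107, 105, 113 and 117 FPKM in DMSO. The groups overlap, and the gene was not called (log2 fold change 0.06 ± 0.0456, limma adjusted p = 0.248). It was the most abundant of the 44 genes in both groups. With upper-quartile, median-of-ratios and nuclear read scaling it was called higher, by log2 fold changes of 0.19, 0.11 and 0.12, whereas with library totals its change was -0.01.

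In the constitutive centromere network, 11 of 12 tested genes fell, and CENPT did not. CENPW and CENPT form a histone-fold pair that binds centromeric DNA. CENPW stood at 2.97, 2.87, 5.41 and 1.33 FPKM in the combination and at 28.0, 25.2, 27.6 and 24.8 FPKM in DMSO (log2 fold change -2.81 ± 0.248, limma adjusted p = 4.30e-06). The groups are apart, and the combination samples spread more widely than for any other tested gene of this network, at 17 to 67 reads per sample. CENPT, in contrast, stood at 7.55, 8.13, 8.03 and 7.54 FPKM in the combination and at 7.96, 7.53, 8.07 and 7.70 FPKM in DMSO. These values overlap fully (limma adjusted p = 0.979), while upper-quartile factors and quantile normalization called the gene higher by 0.12 and 0.13 (log2). Of the exon length of CENPT, 19.6% lies under genes on the other strand.

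The other members of the network fell by different amounts. CENPI (0.390 ± 0.0664 against 6.03 ± 0.255 FPKM) and CENPK (0.663 ± 0.152 against 7.73 ± 1.01 FPKM) share a subcomplex with CENPH (2.36 ± 0.502 against 15.9 ± 1.52 FPKM) and CENPM (1.77 ± 0.302 against 16.0 ± 0.585 FPKM). The nucleosome reader CENPN stood at 1.42 ± 0.220 against 11.1 ± 0.892 FPKM and its partner CENPL at 1.08 ± 0.153 against 5.21 ± 0.673 FPKM. In the CENP-O group, CENPU stood at 1.92 ± 0.275 against 19.3 ± 1.26 FPKM and CENPQ at 1.37 ± 0.329 against 7.40 ± 0.958 FPKM. CENPO stood at 0.628 ± 0.0966 against 7.21 ± 0.305 FPKM. Genes of the other strand cover 31.4% of the exons of CENPO and 22.8% of those of CENPN. CENPC, which joins CENP-A nucleosomes to the outer layer, showed the smallest decrease of the called genes of this network, to 0.814 ± 0.0688 from 2.84 ± 0.148 FPKM. CENPP, the gene that did not pass the filter, stood at 0.362, 0.311, 0.236 and 0.280 FPKM in the combination and at 0.893, 0.934, 0.972 and 1.02 FPKM in DMSO. These groups do not overlap, and without the filter the gene was called lower (log2 fold change -0.59, limma adjusted p = 0.000276), but genes of the other strand cover 42.7% of its exons.

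The outer network that binds microtubules fell in 9 of 10 genes. ZWINT, a KNL1 partner on chromosome 10 (56357228 to 56361275), showed the largest fitted decrease of all 43 genes. It stood at 2.01, 2.46, 2.13 and 1.81 FPKM in the combination and at 62.3, 62.6, 61.9 and 60.5 FPKM in DMSO (log2 fold change -4.34 ± 0.0578, limma adjusted p = 2.82e-11). The groups lie far apart, with a mean 29.4 times as high in DMSO. NDC80 and NUF2 form the microtubule-binding end of the NDC80 complex. NDC80 stood at 0.389 ± 0.0551 against 11.1 ± 0.844 FPKM and NUF2 at 0.957 ± 0.176 against 24.4 ± 1.03 FPKM. SPC24 (0.982 ± 0.264 against 12.1 ± 1.40 FPKM) and SPC25 (0.590 ± 0.258 against 16.7 ± 1.25 FPKM) form its inner end, and SPC25 rests on 9 to 26 reads in each combination sample. KNL1, the scaffold onto which checkpoint proteins load, stood at 0.251 ± 0.0499 against 6.01 ± 0.423 FPKM.

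The 4 subunits of the MIS12 complex, which links the inner layer to NDC80 and KNL1, did not move alike. DSN1 fell to 2.73 ± 0.343 from 24.5 ± 0.969 FPKM, and PMF1 to 2.12 ± 0.412 from 7.97 ± 0.398 FPKM. The PMF1 value is less certain, since 23.3% of its exon length is shared with the read-through gene PMF1-BGLAP. NSL1 stood at 9.19, 7.82, 9.26 and 8.24 FPKM in the combination and at 9.97, 8.55, 9.06 and 8.65 FPKM in DMSO. These values overlap (log2 fold change -0.06 ± 0.0638, limma adjusted p = 0.380). MIS12 stood at 8.36, 8.47, 7.30 and 8.07 FPKM in the combination and at 8.56, 9.70, 10.2 and 9.13 FPKM in DMSO, lower by a log2 fold change of -0.20 ± 0.0598 (limma adjusted p = 0.0126). The groups of MIS12 only just separate, and the call was lost with upper-quartile factors (limma adjusted p = 0.297), quantile normalization (0.308) and nuclear read scaling (0.0635).

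The SKA complex, which keeps kinetochores bound to shortening microtubules, fell in all 3 genes. SKA1 stood at 0.823, 0.793, 0.653 and 0.635 FPKM in the combination and at 11.5, 11.6, 10.8 and 10.7 FPKM in DMSO (log2 fold change -2.81 ± 0.0535, limma adjusted p = 1.46e-10). SKA3 stood at 0.916 ± 0.230 against 10.5 ± 0.743 FPKM. SKA2 kept a larger part of its level, with 8.40, 8.79, 9.30 and 8.01 FPKM against 24.5, 24.5, 25.4 and 24.4 FPKM (log2 fold change -1.42 ± 0.0434, limma adjusted p = 2.54e-09). All groups are apart, and the combination mean was 34.9% of DMSO for SKA2 but 6.52% for SKA1.

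Of the 5 genes of the fibrous corona, the outermost layer, 4 fell. CENPF, a large microtubule-binding protein, stood at 1.84, 1.63, 1.61 and 1.46 FPKM in the combination and at 45.2, 45.7, 47.1 and 41.5 FPKM in DMSO (log2 fold change -4.12 ± 0.0542, limma adjusted p = 2.77e-11). The kinesin motor CENPE, which moves chromosomes towards the spindle equator, stood at 0.550 ± 0.0251 against 9.89 ± 0.707 FPKM. These 2 genes are both far below DMSO. KNTC1, ZWILCH and ZW10 form the RZZ complex, which brings dynein and the MAD1-MAD2 complex to the kinetochore. KNTC1 fell to 1.04 ± 0.137 from 6.66 ± 0.250 FPKM and ZWILCH to 1.88 ± 0.188 from 10.7 ± 0.648 FPKM. ZW10, which also serves vesicle traffic between the endoplasmic reticulum and the Golgi, stood at 2.59, 2.68, 3.13 and 2.90 FPKM in the combination and at 3.06, 3.54, 3.20 and 2.88 FPKM in DMSO. These groups overlap, and the gene was not called (log2 fold change -0.12 ± 0.0665, limma adjusted p = 0.115), although library totals called it lower (-0.18).

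All 6 checkpoint genes were called lower, by unequal amounts. BUB1B, whose product BUBR1 is part of the inhibitor of the anaphase-promoting complex, stood at 1.26, 1.19, 1.25 and 0.892 FPKM in the combination and at 20.9, 20.6, 22.3 and 18.0 FPKM in DMSO (log2 fold change -3.32 ± 0.0770, limma adjusted p = 4.32e-10). The kinase BUB1 stood at 1.17 ± 0.154 against 16.9 ± 0.987 FPKM and the kinase TTK (MPS1), which starts the signal, at 0.917 ± 0.187 against 11.7 ± 0.538 FPKM. MAD2L1, which encodes the checkpoint protein MAD2, stood at 1.09 ± 0.176 against 15.5 ± 0.433 FPKM. For these 4 genes the combination mean was 5.61% to 7.81% of DMSO. Of the exon length of BUB1B, 10.2% is shared with the read-through gene BUB1B-PAK6. BUB3, the partner of BUB1 and BUBR1, fell less, to 11.2 ± 0.221 from 16.5 ± 0.384 FPKM (log2 fold change -0.52 ± 0.0302, limma adjusted p = 1.99e-07). MAD1L1, whose product anchors MAD2 at the kinetochore, stood at 7.18, 6.41, 7.56 and 7.49 FPKM in the combination and at 8.80, 8.73, 8.42 and 9.42 FPKM in DMSO. The groups of MAD1L1 do not overlap, but the decrease was small (log2 fold change -0.27 ± 0.0543, limma adjusted p = 0.00126).

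CENPJ and MAD2L2 share a name with the family but mainly act elsewhere. CENPJ, which serves the growth of centrioles, stood at 1.59, 1.25, 1.37 and 0.934 FPKM in the combination and at 6.6, 7.44, 7.46 and 6.16 FPKM in DMSO (log2 fold change -1.80 ± 0.0949, limma adjusted p = 1.08e-07). MAD2L2 (REV7), a subunit of the translesion DNA polymerase zeta, stood at 14.5, 13.8, 16.3 and 16.1 FPKM in the combination and at 15.9, 16.3, 16.1 and 16.8 FPKM in DMSO. CENPJ is lower in every combination sample, whereas the groups of MAD2L2 overlap (log2 fold change -0.10 ± 0.0526, limma adjusted p = 0.12). Library totals and voom called MAD2L2 lower, by -0.16 and -0.17 on the log2 scale, and so did the fit without combination replicate 3 (-0.13).

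**Figure D1:**
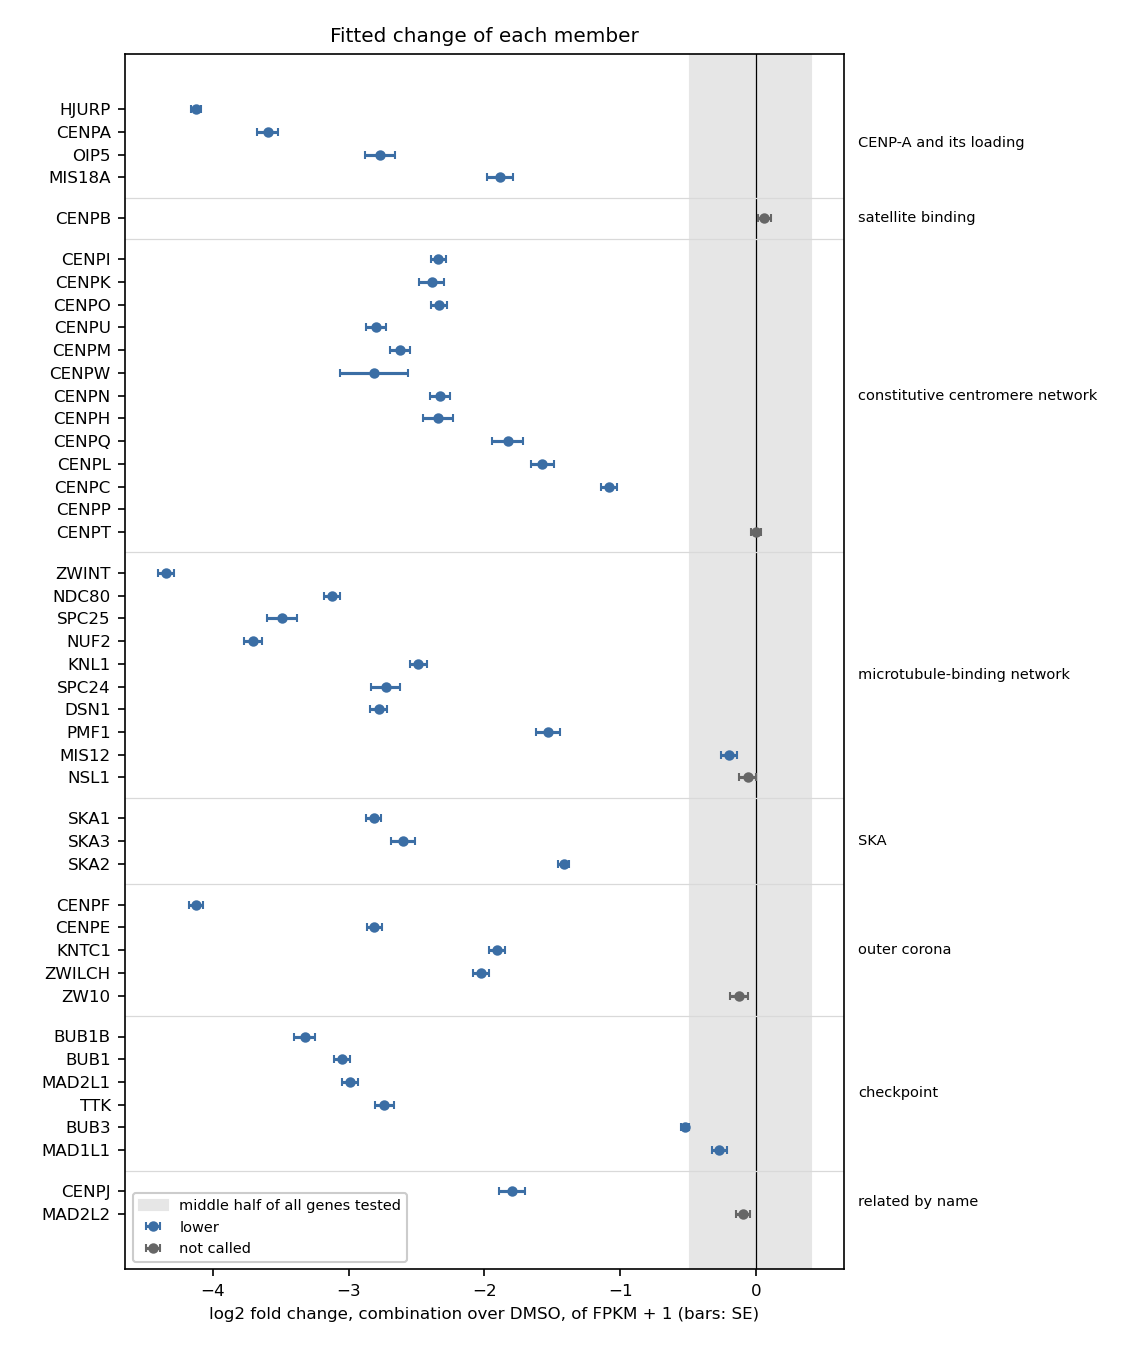
Fitted log2 fold change of FPKM + 1, combination over DMSO, with its SE, for the 43 tested genes by role; the band spans the middle part of all genes tested, from the lower to the upper quartile (-0.49 to 0.40). Blue genes were called lower and grey genes were not called. CENPP was not tested.

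The unequal changes within complexes can be read as ratios of the FPKM of partner genes inside each sample, in which the scaling of that sample nearly cancels. Of 20 ratios, 16 separated the groups without overlap (two-sided exact permutation p = 0.0286 each, adjusted p = 0.0357 over the 20 ratios). The pairs were chosen with the changes of their genes known, and the share among pairs of other genes was not computed. The ratios thus restate those changes within samples and are no independent evidence of them. The BUB1B/BUB3 ratio stood, on the log2 scale, at -3.06, -3.11, -3.10 and -3.48 in the combination and at 0.29, 0.32, 0.46 and 0.14 in DMSO. In FPKM, BUB1B was thus above BUB3 in every DMSO sample and below it in every combination sample. Such an order, and any crossing of 0, depends on the exon lengths used, here 4476 and 8300 bases. In reads, BUB3 exceeded BUB1B in DMSO too (2137 to 2463 against 1275 to 1670). The MAD2L1/MAD1L1 ratio moved likewise, from a mean of 0.81 ± 0.0985 to -2.62 ± 0.128, DSN1/MIS12 from 1.38 ± 0.160 to -1.53 ± 0.247, and KNTC1/ZW10 from 1.05 ± 0.0941 to -1.36 ± 0.230. The CENPT/CENPW ratio crossed in the other direction, from -1.74 ± 0.0524 to 1.44 ± 0.760. NSL1/PMF1 rose by 1.81 and SKA1/SKA2 fell by 2.26 (log2).

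The ratios of other partners did not separate. NDC80/NUF2 stood at -1.10 ± 0.161 in the combination and -1.13 ± 0.05 in DMSO (exact permutation p = 0.771, adjusted p = 0.771), and HJURP/CENPA at 1.12 ± 0.290 and 1.23 ± 0.0532 (exact permutation p = 0.657, adjusted p = 0.692). KNTC1/ZWILCH (exact permutation p = 0.171, adjusted p = 0.190) and SPC24/SPC25 (exact permutation p = 0.0571, adjusted p = 0.0672) also overlapped between groups. These ratios of low genes depend on the pseudocount, which was 0.1 FPKM here. With a pseudocount of 1, NDC80/NUF2, HJURP/CENPA and SPC24/SPC25 separated the groups, CENPH/CENPK and CENPI/CENPH did not, and CENPM/CENPI changed sign. With none, KNTC1/ZWILCH separated them.

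**Figure D2:**
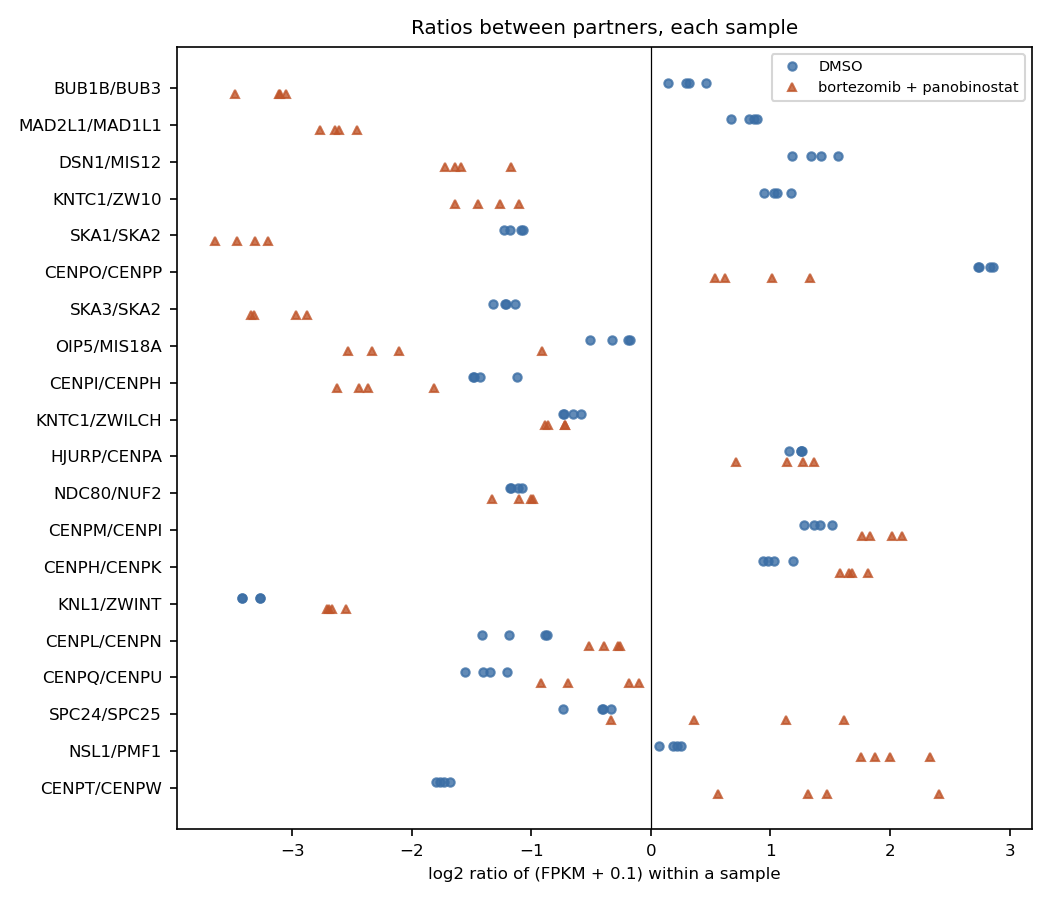
Log2 ratio of FPKM + 0.1 between partner genes in each DMSO sample (circles) and combination sample (triangles), ordered by the difference between group means. BUB1B/BUB3, MAD2L1/MAD1L1, DSN1/MIS12 and KNTC1/ZW10 cross 0 from right to left, and CENPT/CENPW crosses from left to right.

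Promoters were compared because so many genes moved together while a few of their partners did not. RefSeq windows (GRCh38.p14) of 250 bases before to 50 bases after the start were matched for 35 of the 44 genes, and no window was matched for MIS18A, CENPH, CENPL, CENPM, KNL1, KNTC1, BUB3, TTK and CENPJ. The stretches below are the 120 bases before the start, with CHR and CCAAT letters in capitals on either strand (TTCAAA and ATTGG on the reverse). The first 5 genes fell by 4-fold or more in the fit, and CENPT, NSL1 and MIS12 were level or nearly so.
ZWINT, chr10:56361260-56361379, minus strand: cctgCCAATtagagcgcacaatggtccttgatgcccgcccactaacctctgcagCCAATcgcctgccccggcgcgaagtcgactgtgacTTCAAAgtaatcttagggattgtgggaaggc
HJURP, chr2:233854536-233854655, minus strand: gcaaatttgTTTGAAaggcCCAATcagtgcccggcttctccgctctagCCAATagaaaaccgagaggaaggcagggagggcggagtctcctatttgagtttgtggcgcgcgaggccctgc
CENPA, chr2:26785936-26786055, plus strand: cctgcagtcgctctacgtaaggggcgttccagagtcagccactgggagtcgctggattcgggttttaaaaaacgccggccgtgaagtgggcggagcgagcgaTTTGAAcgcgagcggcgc
BUB1B, chr15:40160949-40161068, plus strand: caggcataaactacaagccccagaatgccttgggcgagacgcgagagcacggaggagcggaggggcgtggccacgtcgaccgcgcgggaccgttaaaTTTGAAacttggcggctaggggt
BUB1, chr2:110678064-110678183, minus strand: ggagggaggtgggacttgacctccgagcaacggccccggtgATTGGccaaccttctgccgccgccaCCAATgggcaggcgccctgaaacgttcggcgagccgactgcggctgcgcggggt
CENPT, chr16:67847694-67847813, minus strand: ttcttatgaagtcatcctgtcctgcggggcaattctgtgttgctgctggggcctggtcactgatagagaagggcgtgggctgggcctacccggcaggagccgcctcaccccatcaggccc
NSL1, chr1:212791778-212791897, minus strand: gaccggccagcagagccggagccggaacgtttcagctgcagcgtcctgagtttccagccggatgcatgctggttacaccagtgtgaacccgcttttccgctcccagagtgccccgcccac
MIS12, chr17:5486254-5486373, plus strand: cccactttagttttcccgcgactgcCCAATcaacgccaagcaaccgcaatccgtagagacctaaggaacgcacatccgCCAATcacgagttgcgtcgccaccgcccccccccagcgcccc

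In these stretches, the CHR letters begin 18 bases before the start in CENPA, 23 in BUB1B, 31 in ZWINT and 111 in HJURP. BUB1 holds CCAAT letters only, 54 and 79 bases before the start, and so does MIS12, 42 and 95 bases before it. CENPT and NSL1 hold neither in the whole window. The printed genes are examples and do not show how often CHR letters lie before the start. In CENPN, NUF2, MAD2L1, SKA1, CENPO and CENPF the CHR letters begin after the start, at bases 4, 17, 25, 35, 37 and 41. In NDC80, SKA3 and SPC25 they run across it, and SPC25 holds another match 247 bases before it. Of the genes not printed, only CENPC and ZW10 hold their CHR letters wholly before the start, 90 and 224 bases before it. Over the 300-base windows, the CHR letters TTTGAA, on either strand, were in 14 of 27 genes lower by 2-fold or more (51.9%). They were in 1 of 7 genes that were not called or fell less (14.3%), and in 15.4% of 27305 promoters of the same length. CCAAT was in 18 of 27 (66.7%), in 2 of 7 (28.6%) and in 35.7% of all promoters. The letters TTCCCGCC, bound by E2F factors, were in 4 of 27 (14.8%), in 2 of 7 (28.6%) and in 3.18% of all promoters. The GC box GGGCGG, which can share bases with the E2F letters, was in 17 of 27 (63.0%), in 5 of 7 (71.4%) and in 44.6% of all promoters. The gene sets were split by their fitted change and are small, so these shares are a description without a test. A match is not a bound site, and the start used in LN229 cells may differ from the RefSeq start.

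**Figure D3:**
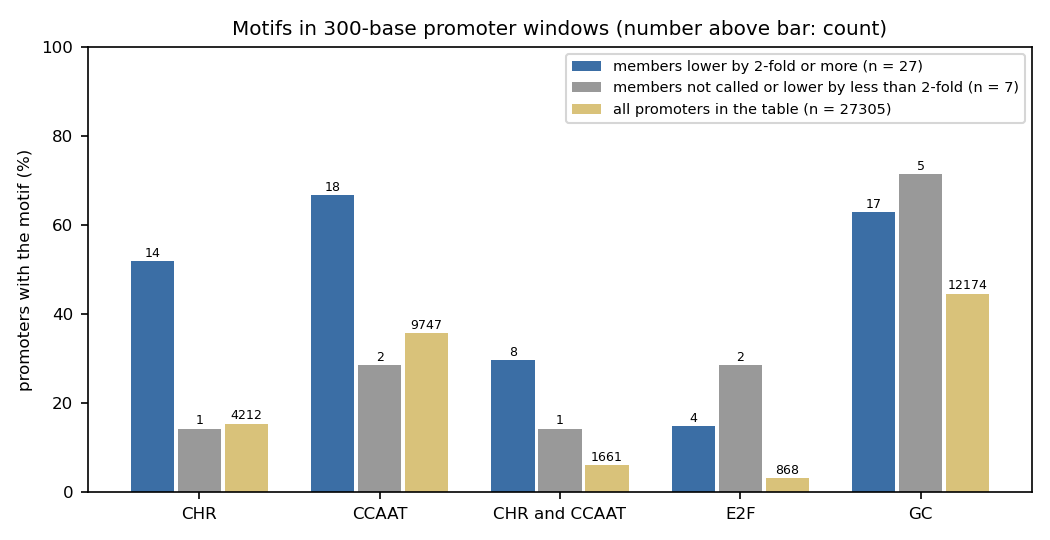
Share (%) of 300-base promoter windows that hold each motif on either strand, for genes lower by 2-fold or more (27), genes not called or lower by less (7) and all promoters in the RefSeq table (27305), with counts above the bars. The CHR bar stands at 51.9%, 14.3% and 15.4% in that order.

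Other genes of the kinetochore, the inner centromere and the checkpoint that are not among the 44 were read from the same fit. Of 31 tested, 27 were lower and 2 higher, with a median log2 fold change of -1.54, while 41.0% of all genes tested were lower and 36.9% higher. Among them 7 passed the filter only through DMSO, and of the 24 with a mean of at least 1 FPKM in both groups 20 were lower, against 41.1% of such genes. BIRC5 (survivin), a subunit of the chromosomal passenger complex, showed the largest decrease (log2 fold change -4.38 ± 0.0811). CDC20, the activator of the anaphase-promoting complex that the checkpoint inhibits, stood at 5.96 ± 0.668 against 120 ± 6.56 FPKM. The kinase PLK1 followed (log2 fold change -4.06 ± 0.0485). At the other end, the nucleoporin RANBP2 was higher, at 9.75 ± 0.565 against 7.89 ± 0.368 FPKM (limma adjusted p = 0.000569). The nucleoporin SEH1L was called higher (3.70 ± 0.245 against 3.19 ± 0.273 FPKM, limma adjusted p = 0.0331), but its groups overlap. This call was lost without the filter, with library totals, with voom and in 6 of the 8 fits that leave out 1 sample. BOD1, a regulator of phosphatase 2A at kinetochores, stood at 16.9 ± 0.950 against 17.5 ± 1.21 FPKM (limma adjusted p = 0.399).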

How the data were processed

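RNA of 8 samples (4 combination, 4 DMSO) was analysed from a table of FPKM values that the authors deposited, with 1 column per sample. The submitters' processing notes list the builds GRCh37 and mm8, and Bowtie 0.12.2, with no roles. All 58735 identifiers, coordinates and exon lengths equal those of GENCODE 29 on GRCh38, which is the build of the coordinates printed here, from the table's other deposited columns. Neither the counting tool nor its strand setting is given in the sources used here. The product of FPKM and length gave whole reads for 100% of nonzero values (within 0.02), which gave library totals. The deposited scaling was 0.954 to 1.00 times these totals in the combination and 1.03 to 1.04 times in DMSO. Library totals in its place shift log2 fold changes by about -0.07. At 3 reads, a gene of 1 kb has 0.173 to 0.197 FPKM, a floor that covers counting error only.

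limma 3.58.1 (R 4.3.3) was fitted to log2(FPKM + 1) with the group as the only term and a mean-variance trend, over the 13296 genes whose mean reached 1 FPKM. P-values were adjusted by Benjamini-Hochberg over all genes tested, and genes were called at 0.05. Values are mean ± SD over 4 samples, combination first. Ratios used a pseudocount of 0.1. Alternatives were other pseudocounts, no filter, other scalings, voom on the recovered reads, a replicate block and each sample left out. All 44 members were analysed. By a written rule, values in every sample are given for the largest and smallest change in each role and for genes not called, and outside the members the 3 lowest, the 3 highest and MKI67, TOP2A and PCNA are named. The members, lists and tests were chosen with earlier results of these data known. Exon overlaps are with any GENCODE 29 gene. Figures were drawn with matplotlib 3.10.9.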

Additional observations from a re-analysis of the deposited data

Results flagged for a closer look

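Among 88 groups of 4 values (44 genes, each in the combination and in DMSO), 4 held a sample that stood apart from its group by Dixon's test, against 4.4 that chance gives at 1 in 20. OIP5 was low in DMSO replicate 1, at 8.84 FPKM against 10.2 to 10.3 FPKM in the other DMSO samples (gap over range 0.917). CENPN was high in DMSO replicate 1, at 12.5 against 10.6 to 10.8 FPKM (0.879). CENPU was high in DMSO replicate 2, at 21.2 against 18.5 to 18.9 FPKM (0.858), and SKA2 was high in DMSO replicate 3, at 25.4 against 24.4 to 24.5 FPKM (0.868). All 4 genes stayed called lower without each of these samples.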

How the results depend on the processing

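Of the 38 genes called lower, 37 kept direction and call under all 18 alternatives, and MIS12 did not. Members lower numbered 37 to 40 over the alternatives and 38 to 39 without each sample in turn. Members higher, 0 in the main fit, numbered 2 with upper-quartile factors, 1 with median-of-ratios factors, 1 with quantile normalization and 1 with nuclear read scaling, which was chosen after seeing the data. Upper-quartile factors, which rescale every gene of a sample alike, moved the median of all genes from -0.03 to 0.08. The median log2 fold change of the members was -3.18 with a pseudocount of 0.1, -1.33 with 5, -2.44 with library totals, -2.30 with upper-quartile factors, -3.28 with voom and -2.45 to -2.36 without each sample. Genes higher over the whole table numbered 7747 without the filter, where more genes were tested. Other kinetochore-associated genes higher numbered 1 without the filter, with library totals and with voom, and 1 to 2 without each sample. The sign of CENPB was reversed with library totals (-0.0096), quantile normalization (-0.055) and voom (-0.0072). That of CENPT was reversed with upper-quartile factors (0.12), median-of-ratios factors (0.044), quantile normalization (0.13) and nuclear read scaling (0.051), and ran from -0.019 to 0.014 without each sample. NSL1 (0.057 and 0.058), MAD2L2 (0.030 and 0.020) and BOD1 (0.074 and 0.057) were reversed with upper-quartile factors and quantile normalization, and BOD1 with nuclear read scaling (0.0017). The ratios of NDC80/NUF2 without a pseudocount (-0.15), and with a pseudocount of 1 those of CENPI/CENPH (0.00116), CENPM/CENPI (-0.28) and KNTC1/ZWILCH (0.11), were reversed. Ratios without overlap, 16 in the main analysis, numbered 16 to 17 under all alternatives. The cause of these shifts was not tested. Same-numbered samples showed no clear shared deviation (correlations of -0.02 to 0.07). This cannot show whether the numbers pair the samples by culture or batch. With the replicate block, 38 members were lower and 0 higher, and 5404 genes were lower and 4839 higher. The 16 ratios without overlap moved one way in all 4 pairs, which lack of overlap makes certain under any pairing. OIP5 and SPC25 had under 10 reads in at least 1 combination sample, which limits the precision of their fold changes.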
